A study of Mus musculus with 8 samples.

Results

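Mitosis is run by a set of genes that proliferating cells switch on together in G2. The kinase Cdk1, bound to a B-type cyclin, starts mitosis, the Aurora and Polo kinases and the kinesin motors build the spindle, and the checkpoint proteins Mad2 and BubR1 hold back the anaphase-promoting complex until every kinetochore is attached. Cdc20 and Ube2c then let that complex destroy cyclin B and securin, separase opens cohesin, condensin and topoisomerase II have already shaped the chromosomes, and the cell divides. Germinal center B cells are among the fastest dividing cells of the body, so these genes are strongly expressed in them.

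Described here are 58 mitosis and chromosome segregation genes of the 39017 genes in the deposited table. They were taken by symbol from a fixed list, which was drawn up with earlier results of these data known. All 58 were found and passed the filter on low values. The cells were induced germinal center B cells (iGBs), which are splenic B cells grown on 40LB fibroblasts that carry CD40L and BAFF, with IL-4 at 1 ng/mL, and taken at day 4 after separation from the irradiated feeder by elutriation. The mice were C57BL6/J and carried Cγ1-cre, a Cre expressed from the γ1 constant region locus once a B cell is activated. They were either Prmt5 F/F Cγ1-cre, in which the arginine methyltransferase gene Prmt5 is excised (Prmt5-null), or Cγ1-cre with unfloxed Prmt5 (control), with 4 libraries of each genotype and 1 mouse per library. Per the study's methods the mice were adults of both sexes.

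Prmt5 itself was at 1060.3 to 1994 normalized counts in the null libraries and at 11084 to 13088 in the controls, a log2 fold change of -2.98 ± 0.17 (SE). Depth was 36731721 to 50366174 reads per library. The B cell genes Cd79b and Pax5 were at 26939.7 and 5016 normalized counts or more in all 8 libraries, and the T cell gene Cd3e and the myeloid genes Elane, S100a8 and S100a9 were at 0 in all of them. All 10 B cell markers passed the filter on low values, with 1 called higher and 1 lower. Their sum was 188800 to 223296 in null and 186877 to 213041 in control libraries. Of 10 T cell markers 5 passed the filter on low values, with 1 called higher and 1 lower, and their sum was 1126 to 1551 in null and 1303 to 1837 in control libraries. Of 10 myeloid markers 4 passed it, with 1 called higher, and their sum was 696 to 926 and 685 to 752. Markers of fibroblasts, the feeder cell type, moved with genotype: 18 of 20 passed the filter, 18 of these were higher in the null libraries, 4 were called, and their summed level was 8445 to 14369 normalized counts in null against 5640 to 9519 in control libraries, with Postn at or near 0. Plasma cell markers summed to 55887 to 61294 in null and 60928 to 81005 in control libraries. All 8 passed the filter, 5 were lower in the null libraries and 1 was called lower. At an adjusted p below 0.05 alone, 3 fell (37.5%, against 7.33% of all tested genes) and none rose. The part of these cell types in the mitosis gene values was not tested. In bulk RNA, fewer cells in mitosis and less of a transcript per cell cannot be told apart.

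None of the 58 genes was called at the thresholds used, an adjusted p below 0.05 with a change of at least 1.5-fold, while 6.48% of the 16250 tested genes were (limma on log2 of normalized count plus 1). None was called by edgeR or DESeq2 either. At an unadjusted p below 0.05, 18 of the 58 differed, against 29.3% of all tested genes. The 95% interval of the fold change lay wholly within 1.5-fold for 57 of the 58, the exception being Kifc1. Without the fold threshold, 9 genes passed. The 3 that rose in Prmt5-null iGBs were Kifc1, Kif18b and Ttk (5.17% of the 58, against 6.51% of all tested genes), and the 6 that fell were Top2a, Ube2c, Espl1, Cenpa, Kif15 and Ncapd2 (10.3%, against 7.33%). This count rested on all 8 libraries: 4 genes passed without null library PRMT5-10617, 7 without PRMT5-10618, 8 without PRMT5-10770 and 2 without PRMT5-10771, and 3 passed without control library CTRL-10650, 4 without CTRL-10370, 4 without CTRL-10596 and 2 without CTRL-10597.

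Smaller differences were more often downward. The log2 fold change was below 0 for 38 genes and above 0 for 20, with a median of -0.06 where the median of all tested genes was 0.0024. In 14 genes every null library was below every control library (24.1%, against 10.2% of all tested genes), namely Top2a, Ube2c, Espl1, Ccnb1, Cenpa, Ckap2, Kif15, Cdc25b, Ccnb2, Ncapd2, Anln, Ccna2, Smc2 and Kif14; 8 of them did not pass. In 3 genes, the same Kifc1, Kif18b and Ttk, every null library was above every control (5.17%, against 9.67%). The 58 genes together took 0.800 to 0.855% of the normalized counts of a null library and 0.864 to 0.944% of a control library. Their summed level was 361002 to 374481 in null and 380769 to 423683 in control libraries, which did not overlap. Without Top2a the sums were 311745 to 321997 and 319057 to 350405, which did.

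Null library PRMT5-10770 stood apart from the others by transcript length. Each gene's deviation was taken from its mean in the other libraries of the same genotype. Among 7083 well expressed genes, the median deviation was compared between those with 7132 exonic bases or more and those with 2732 or fewer. Long minus short was -0.42 on the log2 scale, and between -0.20 and 0.30 in the other 7 libraries. Of the 58 genes, Cenpe (8620 exonic bases) had the lowest deviation in PRMT5-10770 (-0.56). Cdk1 (4934 bases, between the cuts) had the highest (0.46). Without that library 8 of the 58 genes passed and 43 had a log2 fold change below 0. With the length trend removed from each library, an alternative added after the data were seen, 3 rose and 9 fell.

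**Figure D1:**
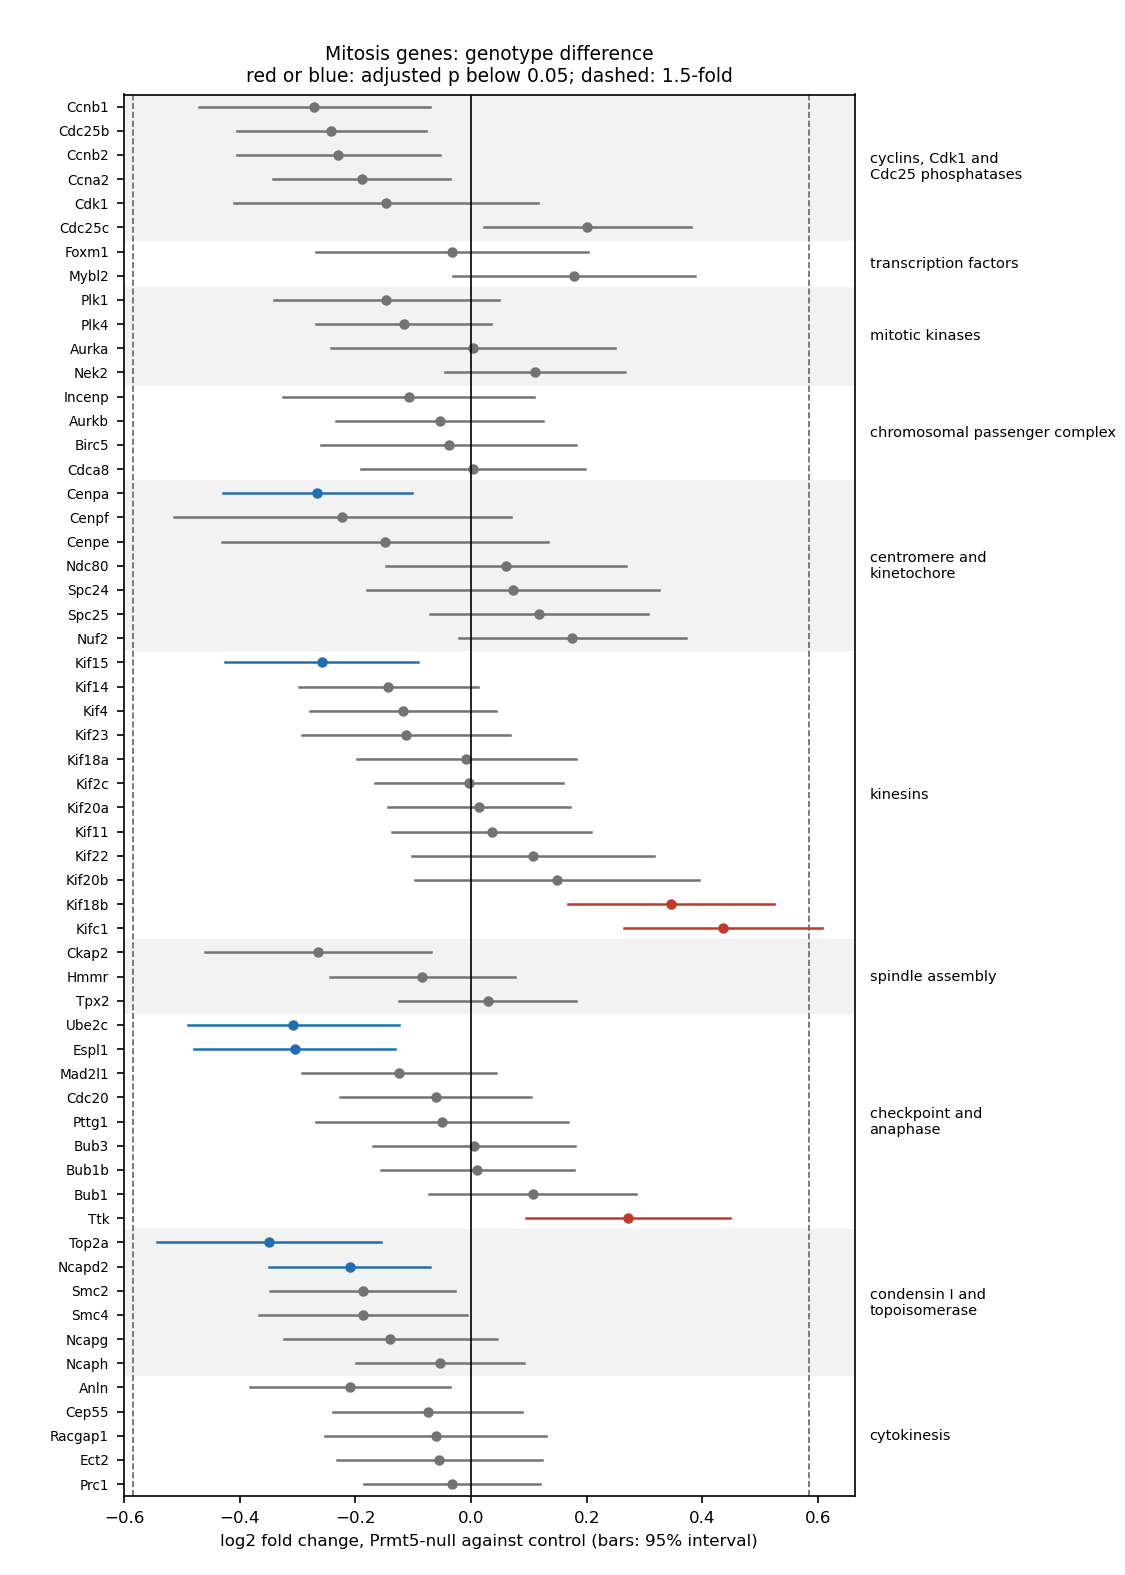
Log2 fold change of each of the 58 genes in Prmt5-null against control iGBs (points) with its 95% interval (bars), grouped by role, with dashed lines at 1.5-fold. The 9 genes with an adjusted p below 0.05 are colored, 6 to the left of 0 and 3 to the right, and 57 of the 58 intervals stay inside the dashed lines.

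In the following, null values are in the order of libraries PRMT5-10617, PRMT5-10618, PRMT5-10770 and PRMT5-10771, and control values in the order CTRL-10650 first, then CTRL-10370, then CTRL-10596 and last CTRL-10597. Fold changes are on the log2 scale of normalized count plus 1.

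The largest rise was that of Kifc1, the minus-end directed kinesin that focuses spindle poles (chr17:33875659-33890661, GRCm38, minus strand). It was at 2002, 2139, 1857 and 2169 normalized counts in null and at 1549, 1432, 1496 and 1551 in control libraries. The lowest null library was above the highest control. The log2 fold change was 0.44 ± 0.08 (SE, 95% interval 0.27 to 0.61), with an adjusted p of 0.0038, and it passed without each of the 8 libraries in turn (adjusted p between 0.0017 and 0.019). Of the 100-base windows in its transcripts, 17.0% are also found in Kifc5b, a close copy on the same chromosome, and reads that map to both would not be counted, since the study counted uniquely mapped reads. Kifc5b, looked up after the values of Kifc1 were seen, was at 1018, 1164, 985 and 1249 in null and at 771, 694, 710 and 816 in control libraries, with a log2 fold change of 0.56 ± 0.10 and an adjusted p of 0.0042.

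Kif18b, a kinesin of astral microtubules, was at 4447, 4196, 3738 and 4463 in null and at 3188, 3074, 3444 and 3529 in control libraries. All null values were the higher ones. Its log2 fold change was 0.35 ± 0.08 (0.17 to 0.52), with an adjusted p of 0.015, and it passed without every library other than null PRMT5-10771 (adjusted p between 0.0044 and 0.060). The third gene that rose was Ttk, or Mps1, the kinase that starts the spindle checkpoint. Its normalized counts were 1898, 1899.8, 2099 and 2123 in null and 1682, 1811, 1548 and 1608 in control libraries. Every null value was above every control value. The log2 fold change of 0.27 ± 0.08 passed narrowly, with an adjusted p of 0.045, and held without null PRMT5-10618 or control CTRL-10370 but not without any of the other 6 libraries (adjusted p up to 0.13).

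Top2a, which encodes the topoisomerase that untangles sister chromosomes (chr11:98992943-99024189, minus strand), showed the largest fall. It was at 49024, 49257, 55148.5 and 51340.2 in null and at 61312, 73278, 61712 and 65026 in control libraries. It was also the most abundant of the 58 genes per length. No null library reached the lowest control value. The log2 fold change was -0.35 ± 0.09 (-0.54 to -0.16), with an adjusted p of 0.022. It no longer passed without null PRMT5-10617, null PRMT5-10771, control CTRL-10370 or control CTRL-10597 (adjusted p between 0.051 and 0.066), and was at 0.011 at the lowest, without null PRMT5-10770.

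Ube2c and Espl1 act at the metaphase to anaphase transition. Ube2c, the E2 enzyme that works with the anaphase-promoting complex, was at 3717, 3211, 2970.0 and 3317 in null and at 4390.1, 4003, 3811 and 4119 in control libraries. The highest null library, PRMT5-10617, was just below the lowest control, CTRL-10596. Its log2 fold change was -0.31 ± 0.08 with an adjusted p of 0.031, and it no longer passed without null PRMT5-10618, null PRMT5-10771, control CTRL-10650, control CTRL-10370 or control CTRL-10597 (up to 0.086). Espl1, the protease separase that cleaves cohesin, was at 3602, 3433, 3034 and 3769 in null and at 4365, 4049, 4286 and 4350.05 in control libraries. Every null value was below every control value. Its log2 fold change was -0.31 ± 0.08 with an adjusted p of 0.026, and it no longer passed without control CTRL-10650, CTRL-10596 or CTRL-10597 (up to 0.067). Pttg1, or securin, the inhibitor of separase, had a log2 fold change of -0.05 (-0.27 to 0.17).

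Cenpa, the histone H3 variant that marks centromeres, was at 3249.7, 3037, 3479 and 3020.2 in null and at 3691, 4100.2, 3717 and 3851 in control libraries. Its log2 fold change was -0.27 ± 0.07 with an adjusted p of 0.035, and of the 8 sets of 7 libraries it passed only in the one without null PRMT5-10770 (up to 0.11 otherwise). Kif15, a spindle kinesin that backs up the Eg5 motor, fell by 0.26 ± 0.08 (adjusted p of 0.044), from 7824 to 8930.0 normalized counts in controls to 6357 to 7486 in null libraries. Of the sets of 7 libraries it passed only in the one without null PRMT5-10618 (up to 0.12 otherwise). Ncapd2, a condensin I subunit, fell by 0.21 ± 0.06 (adjusted p of 0.049), from 16084 to 17099 in controls to 14059 to 14529 in null libraries. It passed in no set of 7 libraries (adjusted p between 0.051 and 0.12).

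**Figure D2:**
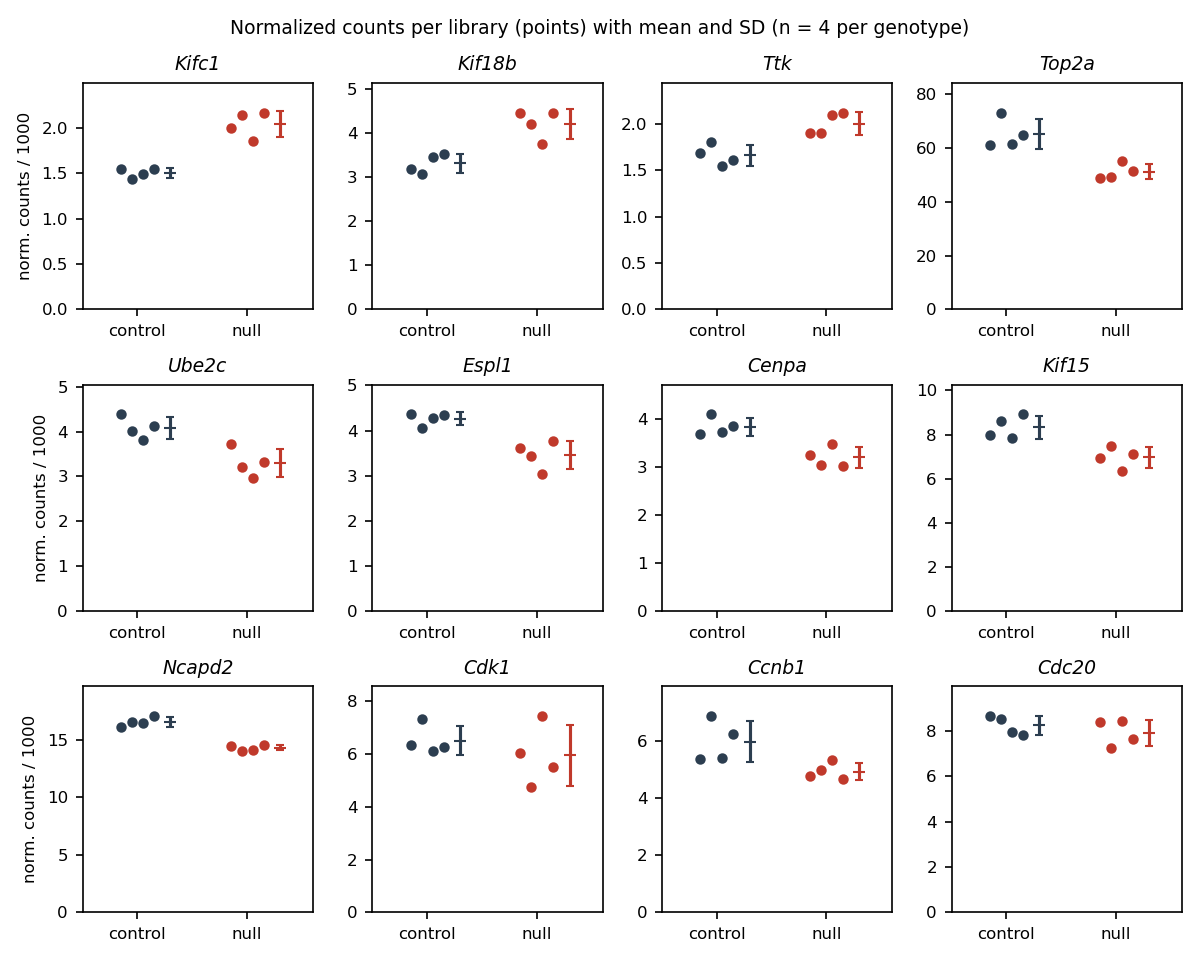
Normalized counts divided by 1000 (axes from 0) of the 9 genes that passed and of Cdk1, Ccnb1 and Cdc20, 1 point per library with the mean and SD beside it (n = 4 per genotype). In the 9 genes and Ccnb1 the points of the genotypes do not overlap, and in Cdk1 and Cdc20 they do.

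No gene of the group that starts mitosis passed in the limma fit. Cdk1, the kinase itself, was at 6048, 4767, 7458 and 5504 in null and at 6356, 7309, 6107 and 6277 in control libraries. The null libraries held both the lowest and the highest value, and the log2 fold change was -0.15 (-0.41 to 0.12, adjusted p of 0.45). Ccnb1, the cyclin that activates it, was at 4777, 4990.0, 5329.8 and 4667 in null and at 5377, 6905, 5425 and 6244 in control libraries. The highest null library, PRMT5-10770, was just below the lowest control, CTRL-10650, and the log2 fold change of -0.27 (-0.47 to -0.07) had an adjusted p of 0.070. Of its transcript windows, 14.9% are shared with pseudogenes. Ccnb2 (-0.23), Ccna2 (-0.19) and the phosphatase Cdc25b (-0.24, adjusted p of 0.052) were also lower in every null library without passing, and Cdc25c was at 0.20 (0.02 to 0.38, adjusted p of 0.13). The median of these 6 genes was -0.21. Cdc25b passed in 5 of 10 alternatives (a mean above 50, quantile scaling, edgeR, DESeq2 and the length trend removed) and without null PRMT5-10618, Ccnb1 and Ccna2 with DESeq2, Ccnb1 also without null PRMT5-10770, and Ccnb2 with the length trend removed.

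The transcription factors that drive the program showed no difference past the test. Foxm1 was at 2285, 2388, 1720.4 and 2254 in null and at 2269, 1952.5, 2319 and 2257 in control libraries. Null PRMT5-10770 and control CTRL-10370 were the low ones, and the log2 fold change was -0.03 (-0.27 to 0.20). Mybl2, or B-Myb, was at 5386, 4067, 5030.1 and 4411 in null and at 4067, 4236, 3818 and 4517 in control libraries. The ranges overlapped and the log2 fold change was 0.18 (-0.03 to 0.39, adjusted p of 0.24).

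Among the mitotic kinases, Plk1, which acts from mitotic entry to cytokinesis, was at 4559.8, 3468, 4172 and 3930.1 in null and at 4765, 4425, 4180.4 and 4421 in control libraries. Its groups overlapped through null PRMT5-10617, with a log2 fold change of -0.15 (-0.34 to 0.05, adjusted p of 0.30). Plk4, which starts centriole duplication, was at -0.12, Aurka, the kinase of spindle poles, at 0.0027 and Nek2, a kinase of centrosome separation, at 0.11, and none passed. Aurkb, the kinase of the chromosomal passenger complex, was at 5026, 4226, 5031 and 4881 in null and at 5095, 5381, 4824 and 4585 in control libraries. These overlapped and gave a log2 fold change of -0.05 (-0.23 to 0.13, adjusted p of 0.71). Its partners in the complex, the scaffold Incenp (-0.11), survivin or Birc5 (-0.04) and borealin or Cdca8 (0.0039), did not pass either.

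Of the other checkpoint and anaphase genes, Cdc20, the activator that the checkpoint withholds, was at 8372, 7240.0, 8412 and 7624 in null and at 8675, 8529, 7957 and 7824 in control libraries. The groups overlapped, with a log2 fold change of -0.06 (-0.23 to 0.10, adjusted p of 0.64). Among the checkpoint proteins, the inhibitors Mad2l1 (Mad2) and Bub1b (BubR1) were at -0.13 and 0.01. The kinetochore proteins Bub1 and Bub3 were at 0.11 and 0.0050. Of 9 genes in this group 1 rose, 2 fell and 6 did not pass. At the kinetochore, the 4 genes of the Ndc80 complex, which holds microtubule ends, had values above 0, Ndc80 (0.06), Spc24 (0.07, but below 0 without null PRMT5-10770 or control CTRL-10650), Spc25 (0.12) and Nuf2 (0.18), whereas the kinetochore motor Cenpe (-0.15) and the outer kinetochore protein Cenpf (-0.22) were below it, and none of these 6 passed.

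Of the 12 kinesins 6 were above and 6 below 0 (7 and 5 with quantile normalization or edgeR, where Kif2c changed sign), with 2 that rose and 1 that fell. Kif11, or Eg5, the target of antimitotic drugs, was at 0.04 (-0.14 to 0.21). The microtubule depolymerase Kif2c (-0.0042), Kif18a, which aligns chromosomes (-0.0083), and the cytokinesis motor Kif20a (0.01) were nearest to 0. The chromokinesin Kif22 and Kif20b were at 0.11 and 0.15, and the chromokinesin Kif4 and the midzone kinesins Kif14 and Kif23 at -0.12, -0.14 and -0.11. Kif20a shares 21.4% of its transcript windows with Cdc23, and Kif4 13.3% with Pdzd11, each an overlapping neighbor, and the counting strand is not given in the sources used here. The spindle assembly genes Tpx2, which activates Aurora A, Hmmr and the microtubule binding Ckap2 were at 0.03, -0.08 and -0.26, with Ckap2 lower in every null library (adjusted p of 0.072).

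Condensin I and topoisomerase genes were all below 0, with a median of -0.19. Besides Top2a and Ncapd2, the core subunits Smc2 and Smc4 were both at -0.19 (adjusted p of 0.11 and 0.16), and the other condensin I subunits Ncapg and Ncaph were at -0.14 and -0.05. The 5 cytokinesis genes were likewise all below 0, other than Prc1 when control CTRL-10370 was left out, and none passed: anillin (Anln) was at -0.21 and lower in every null library (adjusted p of 0.10), and the abscission protein Cep55 (-0.08), the centralspindlin subunit Racgap1 (-0.06), the RhoA activator Ect2 (-0.05) and the midzone bundler Prc1 (-0.03) were closer to 0.

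To set these genes in order of abundance, control values were divided by exonic length. That length joins the exons of all annotated transcripts of a gene, so the order also depends on the annotation. Top2a stood first at 6803 to 8130.3 normalized counts per kb, above the range of Cdc20 (4189 to 4644), which did not overlap that of Ccna2 (2858 to 3309). Smc4 (3655 to 4248) overlapped Cdc20, and Ccna2 overlapped Ccnb2 (2721 to 3216). At the other end were Anln (218 to 246), Kif18a (235 to 289.9) and Cdc25c (251 to 293), which overlapped each other in neighboring pairs. The highest and lowest means differed 31.1-fold, and 27 of the 58 genes exceeded 1000 counts per kb.

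**Figure D3:**
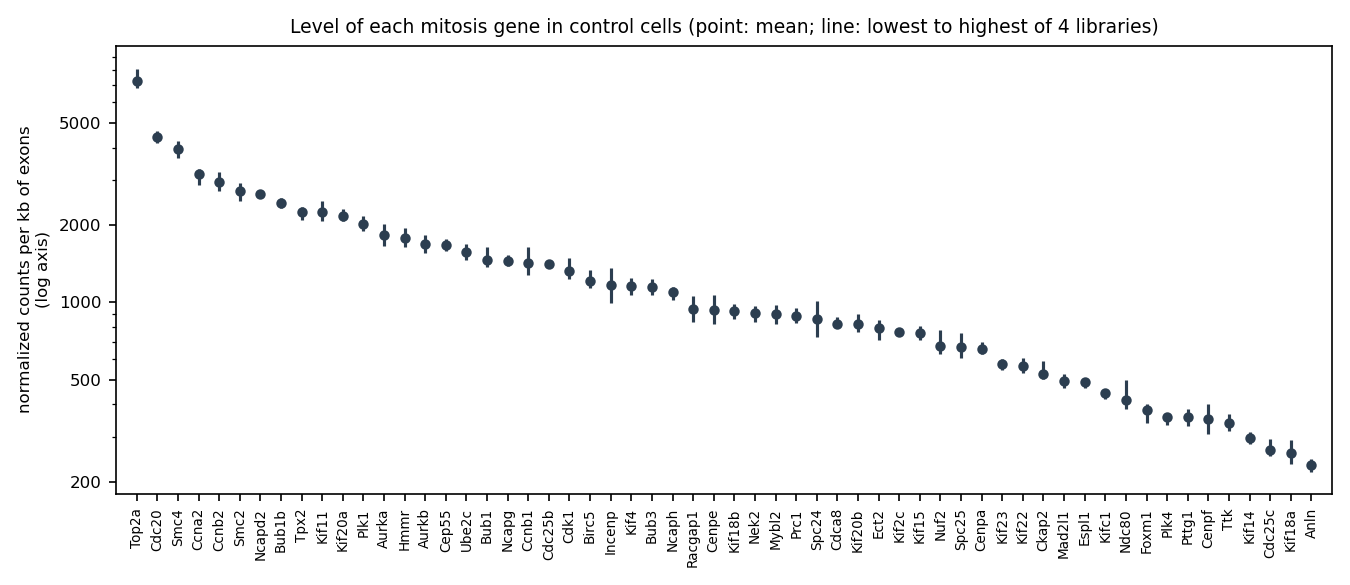
Normalized counts per kb of exons (all annotated transcripts joined) in control iGBs (log axis) for each of the 58 genes, as the mean (point) and the lowest to highest of 4 libraries (line). Top2a stands above all others and Anln is the lowest.

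Promoters of G2 and M genes commonly carry a CHR, a short element with the letters TTTGAA or TTTAAA that MuvB complexes bind with B-Myb or with the DREAM repressor, and CCAAT boxes upstream of it. Both were looked for on both strands in RefSeq promoter windows of GRCm38.p6, which span 250 bases before and 50 bases after the start of a gene. Windows were matched for 49 of the 58 genes (not for Aurkb, Ccna2, Cdc25c, Foxm1, Incenp, Kif20a, Smc4, Spc24 and Tpx2). TTTGAA or TTTAAA was present in 40 of 49 (81.6%, against 27.8% of all 27025 promoters), TTTGAA alone in 36 (73.5%, against 18.1%), at least 1 CCAAT in 35 (71.4%, against 37.9%), and both kinds of letters in 32 (65.3%, against 10.9%). A match is only a match of letters. The 120 bases before the start are shown for the gene that fell most, for Cdk1, and for the 2 genes that rose most, on the strand of the gene, with the letters of CHR and CCAAT or their reverse complements in capitals. The windows lie at chr11:99024190-99024309 (Top2a, minus), chr10:69352913-69353032 (Cdk1, minus), chr11:102925125-102925244 (Kif18b, minus) and chr17:33890634-33890753 (Kifc1, minus). Of the windows of Cdk1 and Kifc1, 26 and 28 bases lie inside the gene as the GENCODE annotation draws it, since its start is further upstream than that of RefSeq.
Top2a: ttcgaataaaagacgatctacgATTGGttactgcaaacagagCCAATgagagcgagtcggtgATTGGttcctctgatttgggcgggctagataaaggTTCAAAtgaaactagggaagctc
Cdk1: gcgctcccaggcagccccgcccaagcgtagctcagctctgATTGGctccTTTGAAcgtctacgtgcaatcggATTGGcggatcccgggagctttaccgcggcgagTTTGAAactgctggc
Kif18b: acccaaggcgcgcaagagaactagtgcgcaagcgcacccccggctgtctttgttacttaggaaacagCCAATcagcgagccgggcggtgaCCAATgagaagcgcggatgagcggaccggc
Kifc1: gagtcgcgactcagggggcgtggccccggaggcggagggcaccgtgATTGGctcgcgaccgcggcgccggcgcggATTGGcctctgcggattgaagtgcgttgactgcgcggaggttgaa

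The windows of Kif18b and Kifc1 hold CCAAT boxes but no CHR letters before the start, and each has them across or after the start. This position was examined after the values were seen, so the split by it is not independent of them and is a description only. The CHR letters lay wholly before the RefSeq start in all 6 genes that fell, in none of the 3 that rose and in 17 of the 40 that did not pass. They did so in 25.5% of all 27025 promoters and in 17.55% of the 9749 promoters of tested genes. The split depends on the annotation. GENCODE starts Ube2c, Espl1 and Cenpa, which fell, 31, 27 and 109 bases further upstream. Their only such letters lie inside the gene as GENCODE draws it. The split was not recounted by GENCODE starts. Of the 23 genes with CHR letters before the start, 20 had a log2 fold change below 0, with a median of -0.15, and of the 26 without, 13 did, with a median of -0.0028. With the whole 300-base window the contrast was smaller, 28 of 40 below 0 (median -0.10) with the letters and 5 of 9 (median -0.0083) without. Over all tested genes with a matched window the letters before the start went with no such shift: the median was 0.01 in 1711 genes with them and -0.0012 in 8038 without. Windows start at 1 annotated start per gene, and no test was made of the difference. For some genes that start is far inside the gene as GENCODE draws it. It lies 3867 bases inside Kif2c and 1505 inside Kif14, both counted with the letters, and 2394 inside Cdca8, counted without.

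**Figure D4:**
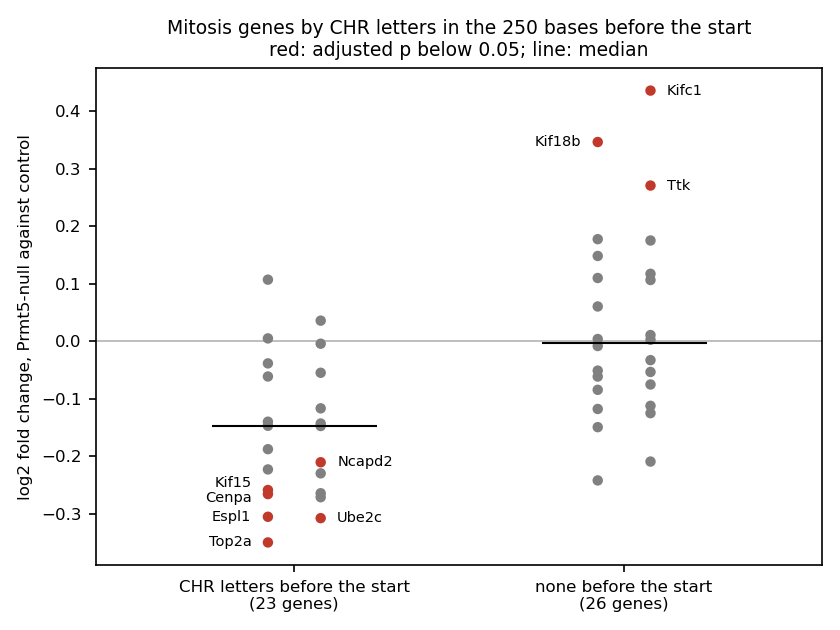
Log2 fold change of the 49 genes with a matched promoter window (points), split by whether CHR letters lie wholly in the 250 bases before the start, with medians as lines (-0.15 and -0.0028). The 6 genes that fell are all on the left and the 3 that rose on the right, in a split by RefSeq starts examined after the values were seen. By the GENCODE annotation the letters of Ube2c, Espl1 and Cenpa lie inside the gene.

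PRMT5 methylates Sm proteins of the spliceosome, and the study deposited splicing events that differed between genotypes. The events were selected by the authors on this contrast, so their inclusion levels are given as the authors' values with no test. The tables do not name the libraries behind the 4 values of each genotype, and which list was the control was taken from the study's own text. Of 1918 events in 1519 genes, 11 were in 8 of the 58 genes (13.8%, against 11.4% of the 13300 genes with a mean above 50 normalized counts). In 7 of the 11 the 4 values of a genotype did not overlap those of the other, against 50.8% of all 1918 events.

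Cenpa was the gene that both passed the expression test and had a listed splicing event. Its skipped exon of 137 bases (chr5:30669692-30669828), which is not a multiple of 3 and is annotated only in 2 transcripts of the nonsense-mediated decay class, had inclusion levels of 0.356, 0.365, 0.326 and 0.302 in control and 0.205, 0.185, 0.193 and 0.205 in null iGBs, over 4146 reads. All null values were lower.

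Kif23, which encodes the Mklp1 subunit of centralspindlin, had more of a skipped coding exon of 312 bases, a multiple of 3, at chr9:61923905-61924216. The levels were 0.441, 0.458, 0.552 and 0.401 in control and 0.645, 0.626, 0.609 and 0.610 in null iGBs, over 3646 reads, without overlap. A second event treats the same exon and a neighbor of 228 bases as mutually exclusive, with mean levels of 0.329 in control and 0.419 in null iGBs. The Kif23 transcript as a whole was at -0.11 and did not pass. Because the exon is wholly coding, its last 150 bases (chr9:61923905-61924054, minus strand) are shown from the GENCODE transcripts of GRCm38, with the last 3 bases, at the 5′ splice site, in capitals.
Kif23 exon: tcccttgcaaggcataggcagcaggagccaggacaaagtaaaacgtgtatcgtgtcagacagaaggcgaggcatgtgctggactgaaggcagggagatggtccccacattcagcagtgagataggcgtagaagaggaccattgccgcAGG

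Nuf2, a subunit of the Ndc80 complex, had less of a skipped exon of 76 bases outside its coding sequence (0.656 to 0.726 in control, 0.532 to 0.624 in null), over 3131 reads. Tpx2, the activator of Aurora A, used the longer of a pair of 5′ splice sites 13 bases apart less often, also outside the coding sequence (0.258 to 0.331 and 0.073 to 0.164, over 2158 reads). Neither overlapped. In the condensin gene Ncapg 1 region gave both an alternative 5′ splice site (0.914 to 0.972 and 0.798 to 0.880, over 5078 reads) and a retained intron (0.036 to 0.1 and 0.073 to 0.172, over 4055 reads), and the latter overlapped. By mean, the longer form of the splice site was lower in null iGBs and the retained intron higher, which are opposite directions. Only 11 reads in control and 39 in null iGBs were of the shorter form.

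The other 4 events rest on few reads. Mybl2 had a pair of mutually exclusive exons whose direction depended on the reads used, with means of 0.778 in control and 0.853 in null when reads on the exons were counted and of 0.348 and 0.058 from junctions alone, over 296 reads. Its skipped exon of 117 bases (chr2:163075919-163076035, plus strand; 0.269 to 0.550 in control and 0.146 to 0.353 in null, over 333 reads) overlapped between genotypes. That exon is shown because most of it reads as a B1 element, a short interspersed repeat of the mouse genome to which reads map less surely, with its last 3 bases in capitals.
Mybl2 exon: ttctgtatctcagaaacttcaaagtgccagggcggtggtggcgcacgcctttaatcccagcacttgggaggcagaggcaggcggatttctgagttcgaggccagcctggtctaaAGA

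The Racgap1 exon (0.522 to 0.578 in control and 0.230 to 0.536 in null, over 247 reads) overlapped through 1 null value. From junctions alone its levels did not overlap (0.529 to 0.585 and 0.212 to 0.515). The Smc4 exon had 25 reads in all, too few for a level.

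**Figure D5:**
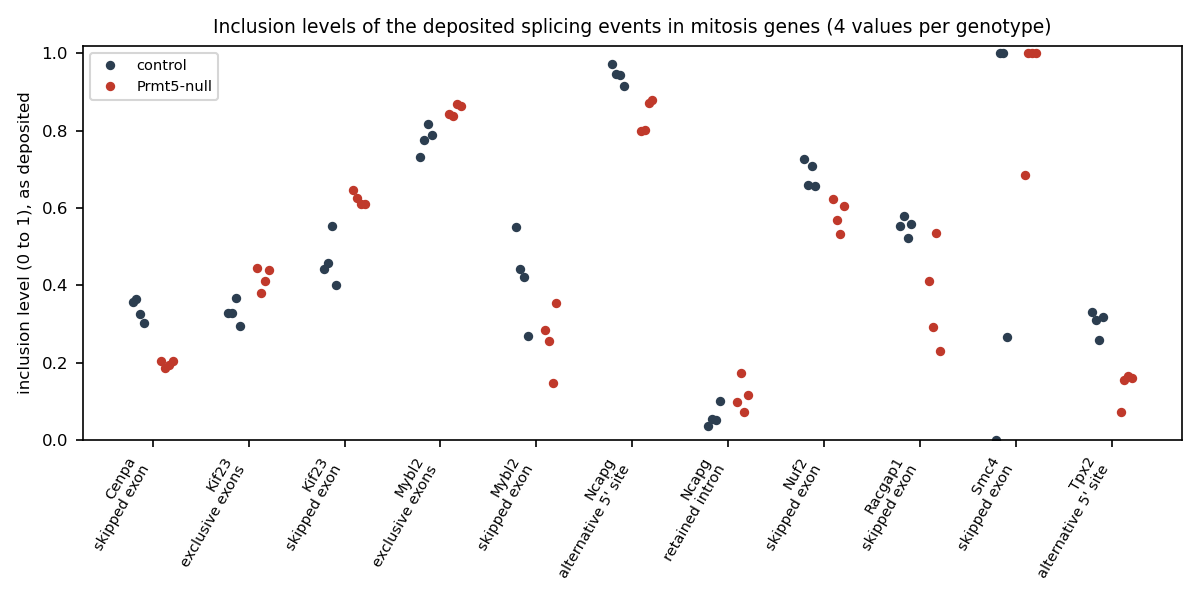
Inclusion levels (0 to 1) of the 11 deposited splicing events in 8 of the mitosis genes, 4 values per genotype, as deposited (junction and target reads). The genotypes are apart in 7 events, among them those of Cenpa, Kif23, Nuf2 and Tpx2, and overlap in 4, among them Smc4 with 25 reads.

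Other genes of the same processes were taken from 7 lists of 136 further genes. Of 135 tested, 8 rose (5.93%, against 6.51% of all tested genes) and 9 fell (6.67%, against 7.33%) past the adjusted p. Their median log2 fold change was -0.05. Against 6.48% of all tested genes, 4 of the 135 were called. These were Psrc1, a spindle protein (1.21 ± 0.10), Gtse1, a G2 and S phase protein that restrains p53 (0.73 ± 0.10), the phosphatase Cdc14b (0.65 ± 0.11) and Knstrn, or kinastrin (-0.73 ± 0.08), with adjusted p of 4.9e-05, 0.00085, 0.0033 and 0.00027. Of 45 DNA replication and G1/S genes, none rose (against 6.51% of all tested genes) and 5 fell (11.1%, against 7.33%). The only call was thymidine kinase Tk1 (-0.59 ± 0.12, adjusted p of 0.0080). In the list of DREAM and MuvB regulators the cell cycle inhibitor p21 (Cdkn1a), 1 of its genes, was at 1367, 1739.6, 1267 and 1784 in null and at 662, 452, 695 and 572 in control libraries, each null value above each control. It rose by 1.37 ± 0.15 (adjusted p of 0.000225), 3 of the 15 genes of the list fell (20%, against 7.33% of all tested genes), and the median of the list was 0.13.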

How the data were processed

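RNA depleted of rRNA was sequenced from 4 Prmt5-null and 4 control iGB cultures, each from a separate mouse. The p-values measure the spread between these cultures, in which differences of mouse, culture and experiment cannot be told apart. Per the study's methods and the labels, the authors trimmed reads with Trimmomatic 0.32, aligned them to GRCm38 (mm10) with STAR 2.3.0e, counted those that mapped uniquely per gene with featureCounts 1.4.4 and scaled the counts by DESeq2 1.14.1 size factors. The deposited signal values are these normalized counts, which gave whole reads in every library at a tolerance of 0.1 read (36731721 to 50366174 reads per library). The kit keeps strand, but the strand setting of the counting is not given in the sources used here. Reads of fragments without molecular identifiers are not independent molecules, so depth covers counting error only.

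Genes were matched by symbol and gene ID. Values were tested as log2(normalized count + 1) for the 16250 genes with a mean of at least 10, over all 8 libraries, with limma 3.58.1 (R 4.3.3, variance trend) and Benjamini-Hochberg adjustment over all genes tested. Calls needed at least 1.5-fold beside an adjusted p below 0.05, and genes that passed met the latter alone. Alternatives were pseudocounts of 0.5 and 5, other filters, TMM and quantile scaling, no variance trend, edgeR 4.0.16 and DESeq2 1.42.0 on the recovered whole reads, each library left out, and a block for the 2 experiments the design text names. Data were also simulated for this comparison over 16250 genes, of which 197 were changed. There limma recovered 18% of genes changed 1.25-fold, 71.4% of those changed 1.5-fold and 95.9% of those changed 2-fold. In the real data 1058 genes rose and 1191 fell past the adjusted p, so the adjustment worked on a different mix of genes. The simulated rates therefore do not tell how often such changes would be found in the mitosis genes, or called at 1.5-fold.

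All 58 genes are named. Values in every library are given for the 6 with the smallest adjusted p and for Cdk1, Ccnb1, Foxm1, Mybl2, Plk1, Aurkb, Cdc20 and Top2a, and Ttk, Prmt5 and Cdkn1a were added. The 58 genes and the lists were chosen with earlier results of these data known. The authors made the splicing tables with rMATS, and the deposited inclusion levels are fractions from 0 to 1. Their p-values, FDR and difference columns hold the authors' comparison and were not used. Transcript windows and exons were taken from the GENCODE annotation of GRCm38, and promoters from RefSeq on GRCm38.p6. A gene of the B cell list is not reported here.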

Additional observations from a re-analysis of the deposited data

Results flagged for a closer look

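Among 116 groups of 4 libraries (58 genes in each genotype), 6 had 1 library far from the other 3 by Dixon's criterion, which chance gives in about 1 of 20 groups. CTRL-10370 was the library in all 3 control groups: Ckap2 was at 1902.6 normalized counts in it (1611 to 1639 in the others), Ndc80 at 3240.8 (2494 to 2579) and Foxm1 at 1952.5 (2257 to 2319). In Prmt5-null iGBs, PRMT5-10770 had the highest Mad2l1, at 4190.5 (3640 to 3699), and the lowest Cenpe, at 5373.1 (7831 to 8020), and PRMT5-10618 had the lowest Ccna2, at 10996.8 (11329 to 11368). None of these 6 genes passed the test.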

How the results depend on the processing

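No gene of the 58 was called under any alternative, at an adjusted p below 0.01 or at 2-fold. The number past the adjusted p, 9 in the values reported, was 4 without a filter on low values, 3 without a variance trend and 4 to 13 over the 18 placements of the libraries in 2 experiments, and 8 to 13 under the pseudocounts, the stricter filter, TMM, quantile scaling, edgeR, DESeq2 and the removal of the length trend, which was chosen after seeing the data. Leaving out 1 library gave 2 to 8. Kifc1 and Kif18b passed under all 10 alternatives other than left-out libraries and placements. The median log2 fold change lay between -0.09 and -0.04 in all of these settings. Kif2c changed sign to 0.0046 with quantile scaling and to 0.000309 with edgeR. When 1 library was left out, genes near 0 took either sign, from -0.095 to 0.089 for Aurka, -0.092 to 0.00497 for Aurkb, -0.099 to 0.059 for Birc5, -0.036 to 0.059 for Bub1b, -0.051 to 0.041 for Bub3, -0.060 to 0.078 for Cdca8, -0.089 to 0.073 for Foxm1, -0.00101 to 0.085 for Kif11, -0.053 to 0.048 for Kif18a, -0.015 to 0.051 for Kif20a, -0.044 to 0.043 for Kif2c, -0.062 to 0.0021 for Prc1, -0.087 to 0.019 for Pttg1, -0.0075 to 0.154 for Spc24 and -0.0036 to 0.060 for Tpx2. Calls in the other mitosis lists numbered 3 to 5. At an inclusion difference of at least 0.25, 2 of the 11 splicing events were left (Smc4, and Mybl2 by junctions). The cause of these changes was not tested. No paired analysis was possible because the genotypes share no replicate number.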
